A study of Danio rerio with 12 samples.

Results

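The genes of the mitochondrial chromosome of zebrafish (Danio rerio) were followed through 12 RNA-seq libraries. All genes that the count table places on chrM were taken, 36 of 22737 genes in all: 13 that code for proteins, 22 for tRNAs and 1 for a ribosomal RNA. No measured value entered this choice. The table names the genes by Ensembl identifier and position under the heading Zv10. Of the 36, all had the same start and end as a mitochondrial gene of RefSeq, 13 also carried an Ensembl symbol, and in 13 of 13 the symbol and the position gave the same gene. The other 23, the tRNA genes and the 12S rRNA, were named by position only. Of 37 mitochondrial genes in RefSeq, 1, the 16S rRNA, was not analysed here.

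Each of 6 groups had 2 libraries. The libraries labelled sperm come, per the labels, from anp32e null fish, and the injected embryos were taken at the sphere stage after Anp32e protein had been injected. No strain is given for either. The other groups are shield-stage embryos 6 h after fertilization: null embryos of strain NHGRI, maternal null and paternal null embryos from crosses of Tu and NHGRI fish, and wild-type embryos of strain Tu. Null and wild-type embryos therefore differ in strain as well as in anp32e, and the labels do not say which parent of a cross was of which strain. Anp32e is a chaperone that removes the histone variant H2A.Z, and the series asks how chromatin guards DNA methylation between germline and embryo.

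The mitochondrial genome is a small circle inherited through the egg. In vertebrates both of its strands are copied into long precursors, and the tRNAs lie between most of the other genes, so that cutting them out frees the mRNAs and rRNAs. The mRNAs encode core subunits of the respiratory chain and of ATP synthase, and the rRNAs and tRNAs serve the mitochondrion's own ribosomes. Early embryos live on mitochondria laid down in the oocyte. In RNA from whole samples, fewer cells or mitochondria and less RNA in each cannot be told apart.

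Total counts ran from 13.5 to 47.7 M per library. The anp32e transcript (ENSDARG00000054804), the check of the labels, stood at 0.231 and 0.310 CPM in the libraries labelled sperm, at 979 and 986 CPM in injected embryos, at 81.2 and 80.5 CPM in null, 1212 and 1226 CPM in maternal null, 1420 and 1413 CPM in paternal null and 2285 and 3172 CPM in wild-type embryos. CPM are counts scaled to a common total (counts per M). In 4 groups (injected, paternal null, maternal null and null) both libraries differed by little more than counting noise, with a chi-square per degree of freedom between 1.05 and 1.17. Each such pair was counted as 1 sample. The wild-type pair and the pair labelled sperm differed far more (95.2 and 42.9), so that the spread in a fit of the shield samples comes from wild type alone. Nothing says that the wild-type libraries came from separate clutches, so p-values measure the spread between these libraries only. With 1 residual degree of freedom, the fit of the shield samples borrows most of a gene's spread from other genes. A gene's own difference between the wild-type libraries therefore enters its p-value little.

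In the libraries labelled sperm the oocyte markers were far above those of sperm. Of 22 sperm and flagellum genes found, the summed level was 132 to 147 CPM in them, against 129 CPM in sphere embryos and 151 to 212 CPM in shield embryos. Much of the embryo sum was odf2b alone. A sum of the other 21, chosen after seeing the data, was 104 to 122 CPM, against 62.8 to 63.6 CPM in sphere and 43.3 to 78.6 CPM in shield embryos, so the direction of this list rests on that gene. Summed oocyte genes (18 found) stood at 19002 to 22967 CPM, against 3615 to 3636 CPM and 923 to 1438 CPM in sphere and shield embryos. Zygotic genes of the shield (23 found) stood at 126 to 129 CPM, against 2199 to 2227 CPM and 4238 to 7921 CPM. Genes of the testis soma (11 found) stood at 129 to 135 CPM, against 86.5 to 89.9 CPM and 14.9 to 36.7 CPM. CYP17A1 gave 119.8 to 124.6 CPM of that sum, and the other 10 genes 9.66 to 10.7 CPM, against 3.87 to 5.24 CPM and 2.75 to 4.15 CPM. Both are called the libraries labelled sperm throughout, and a direction drawn from them is one of these libraries, not of sperm.

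Mitochondrial genes took between 1.71% and 3.12% of the counts of every embryo library and under 0.1% in the libraries labelled sperm. Their share was 0.0980% and 0.0829% in the libraries labelled sperm, 1.84% and 1.86% in injected sphere embryos, 1.72% and 1.71% in null embryos, 2.40% and 2.42% in maternal null, 3.08% and 3.12% in paternal null and 1.82% and 1.96% in wild-type embryos. Paternal null embryos had the highest share and null embryos the lowest of the embryos. The Wilson intervals at 95% confidence reach at most 0.00739 percentage points to either side and cover counting error only. The mitochondrial genome comes from the mother, so the shield samples were also compared by her genotype. Embryos of null mothers (null and maternal null) averaged 2.06% and embryos of wild-type mothers (paternal null and wild type) 2.297%, a difference of -0.235 percentage points. That mean joins opposite directions: maternal null embryos lay above wild type, and null embryos below paternal null. In an exact two-sided permutation test with 2 samples against 3 the p was 0.8, and the smallest p this design can give is 0.2.

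**Figure D1:**
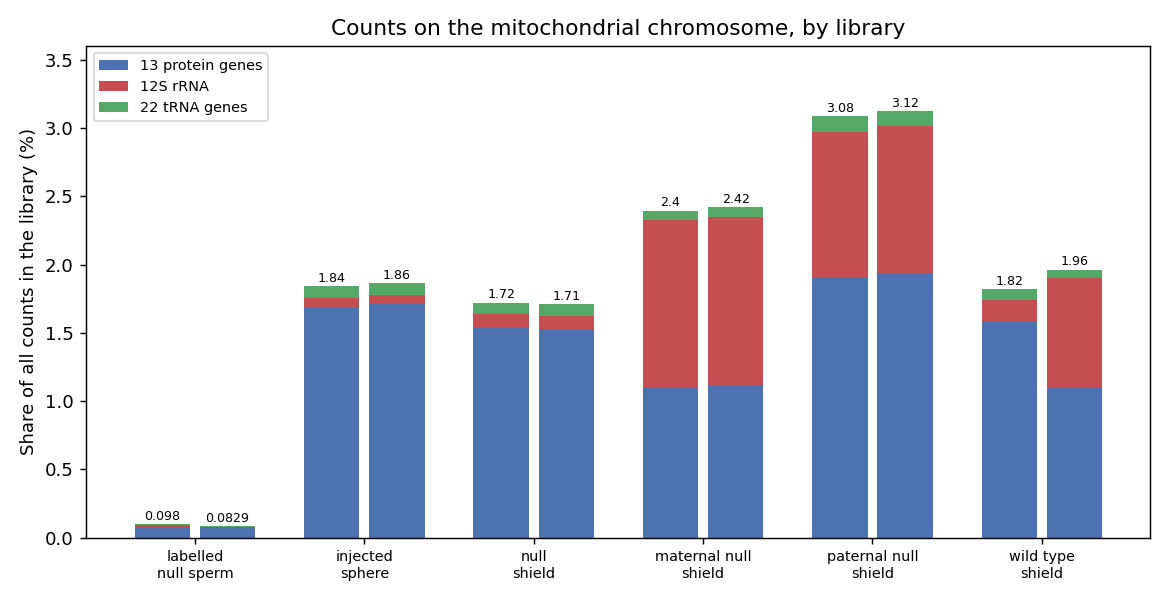
Share of all counts on the mitochondrial chromosome in each library, in percent of the library total, stacked by class (mRNA, 12S rRNA and tRNA). The wild-type libraries had like totals, 1.82% and 1.96%, of which the 12S rRNA made 8.80% and 41.1%.

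The like totals of the wild-type libraries hid a different make-up. The 12S rRNA made 8.80% of the mitochondrial counts in wild-type replicate 1 and 41.1% in replicate 2. In CPM replicate 2 was lower for 13 of 13 mRNAs, with a median log2 difference of -0.64 (range -1.13 to -0.18), and for 20 of 22 tRNAs, with a median of -0.66. Part of this depends on the scale, since the factors of the TMM scaling described further on were 1.04 and 0.863. After that scaling mt-co3 was higher in replicate 2 (2041 and 2178 scaled CPM), as were tRNA-Gln, tRNA-Thr and tRNA-Pro. The other mRNAs stayed lower. This spread within wild type is the yardstick of the shield comparisons, and it limits them. mRNAs alone took 0.0810% and 0.0758% of all counts in the libraries labelled sperm, 1.69% and 1.71% in injected, 1.54% and 1.52% in null embryos, 1.09% and 1.12% in maternal null, 1.90% and 1.94% in paternal null and 1.58% and 1.096% in wild-type embryos. On this measure the maternal null libraries lay beside wild-type replicate 2 and the null libraries beside replicate 1, and both paternal null libraries above all others.

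Between genes, levels were compared in CPM per kb of gene. Over the 10 embryo libraries the mRNAs of the cytochrome c oxidase subunits led the protein genes, with medians of 4128 for mt-co1, 2794 for mt-co2 and 2548 for mt-co3. The cytochrome b mRNA mt-cyb followed at 1352 CPM per kb. The mRNAs of the NADH dehydrogenase subunits lay between 261 (mt-nd4l) and 935 (mt-nd3) and those of ATP synthase at 501 (mt-atp6) and 315 (mt-atp8). The ranges over the embryo libraries of mt-co1 (2746 to 5463), mt-co2 (2044 to 3952) and mt-co3 (1674 to 4492) overlapped, so the order of these 3 does not hold in every library. Among tRNA genes the median ran from 7.02 CPM per kb for tRNA-Val to 7041 for tRNA-Ser1, which on this scale lay above every mRNA. That gene is only 71 bp long, and in CPM it made 7.15% to 9.78% of mt-co1 in the embryo libraries.

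**Figure D2:**
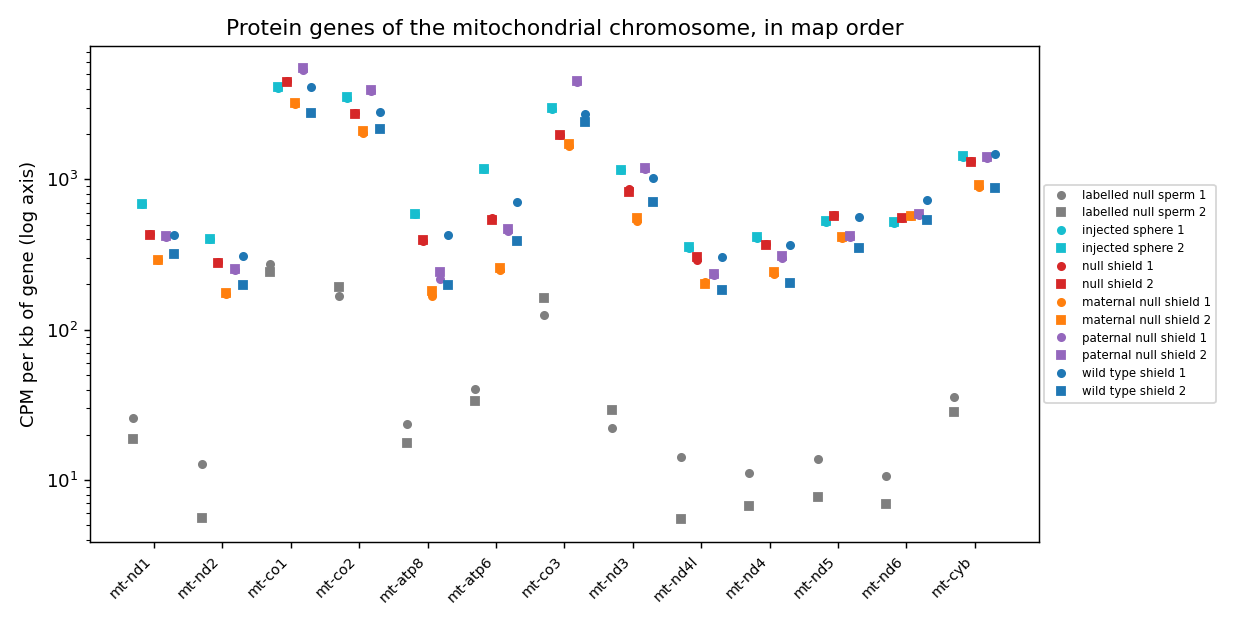
Level of each mitochondrial mRNA in CPM per kb of gene (log axis), by gene and group, each point 1 library. The cytochrome c oxidase mRNAs lie highest in embryos (median 4128 CPM per kb for mt-co1), and all 13 mRNAs lie lowest in the libraries labelled sperm.

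The 3 mRNAs of complex IV, cytochrome c oxidase, which passes electrons to oxygen, were highest in paternal null embryos. mt-co1 (chrM:6425-7975), its catalytic core, stood at 426 and 375 CPM in the libraries labelled sperm, 6316 and 6421 CPM in injected, 7008 and 6932 CPM in null, 4927 and 4988 CPM in maternal null, 8314 and 8473 CPM in paternal null and 6383 and 4259 CPM in wild-type embryos. mt-co2, which takes up electrons from cytochrome c, stood at 116 and 134 CPM in the libraries labelled sperm, 2409 and 2438 CPM in injected, 1914 and 1885 CPM in null, 1413 and 1453 CPM in maternal null, 2684 and 2731 CPM in paternal null and 1947 and 1504 CPM in wild-type embryos. For both genes paternal null lay above both wild-type libraries, while the maternal null libraries lay within the wild-type range for mt-co1 and below it for mt-co2. mt-co3 (chrM:9735-10520), the third large subunit, stood at 98.8 and 128 CPM in the libraries labelled sperm, 2325 and 2348 CPM in injected, 1542 and 1541 CPM in null, 1316 and 1353 CPM in maternal null, 3475 and 3531 CPM in paternal null and 2126 and 1879 CPM in wild-type embryos. Null and maternal null embryos lay below both wild-type libraries for mt-co3 and paternal null embryos above both, while injected embryos lay above both in CPM and below both after the TMM scaling described further on (1853 and 1867 against 2041 and 2178 scaled CPM).

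mt-cyb encodes cytochrome b, the mitochondrial subunit of complex III. It stood at 41.0 and 32.3 CPM in the libraries labelled sperm, 1612 and 1633 CPM in injected, 1510.3 and 1498 CPM in null, 1018 and 1047 CPM in maternal null, 1575 and 1606 CPM in paternal null and 1686 and 1006 CPM in wild-type embryos. In CPM every embryo group lay within the wild-type range. After the TMM scaling described further on, maternal null (1081 and 1112 scaled CPM) lay below both wild-type libraries (1619 and 1167) and paternal null (1640 and 1665) above both.

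The 7 genes of complex I, the NADH dehydrogenase, summed to 96.6 and 63.1 CPM in the libraries labelled sperm, 3371 and 3407 CPM in injected, 2951 and 2910 CPM in null, 2072 and 2106 CPM in maternal null, 2611 and 2666 CPM in paternal null and 3089 and 2018 CPM in wild-type embryos. Unlike the genes of complex IV, their sum was not highest in paternal null embryos among the shield groups, although mt-nd3 was (412 and 416 CPM, against 356 and 249.9 CPM in wild type). mt-nd5, a proton-pumping subunit, was at 25.2 and 14.1 CPM in the libraries labelled sperm, 947 and 964 CPM in injected, 1049 and 1031 CPM in null, 739 and 752 CPM in maternal null, 754 and 769 CPM in paternal null and 1024 and 635 CPM in wild-type embryos. The ratio of mt-co1 to mt-nd5 was 11.03 and 11.01 in the paternal null libraries and between 6.24 and 6.72 in the other 8 embryo libraries. mt-nd1, which borders the quinone site, lay above both wild-type libraries (413 and 313 CPM) in injected embryos (665 and 667 CPM), just above in null (419 and 414 CPM) and below in maternal null embryos (282 and 284 CPM). mt-nd3 and the membrane subunits mt-nd2, mt-nd4 and mt-nd4l ran from 1.63 to 15.3 CPM in the libraries labelled sperm and from 54.4 to 573 CPM in the embryo libraries.

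mt-nd6 is the single mitochondrial mRNA that vertebrates encode on the strand opposite to the others. It lay between 278 and 378 CPM in all 8 shield libraries, with 285 and 287 CPM in null, 296 and 297 CPM in maternal null, 298 and 305 CPM in paternal null and 378 and 278 CPM in wild-type embryos. The shield groups other than wild type thus lay within the wild-type range in CPM. After the TMM scaling described further on, all of them lay below both wild-type libraries (363 and 322 scaled CPM). Scaled CPM were 304 and 306 for null, 311 and 316 for paternal null and 315 for each maternal null library. In injected embryos mt-nd6 was below both wild-type libraries at 268 CPM in each library, and in the libraries labelled sperm it stood at 5.49 and 3.61 CPM. As a percent of the other mitochondrial mRNAs it made 0.683 and 0.479 in the libraries labelled sperm, 1.61 and 1.59 in injected, 1.89 and 1.92 in null embryos, 2.78 and 2.73 in maternal null, 1.60 and 1.60 in paternal null and 2.45 and 2.599 in wild-type embryos. The strand setting of the counting is not given in the sources used here, so counts of mt-nd6 may hold reads of the opposite strand.

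The ATP synthase subunits mt-atp6 (chrM:9052-9735) and mt-atp8 lie next to each other, upstream of mt-co3. mt-atp6, whose protein forms the proton channel, stood at 27.7 and 22.9 CPM in the libraries labelled sperm, 799 and 795 CPM in injected, 378 and 365 CPM in null, 171 and 176 CPM in maternal null, 312 and 319.9 CPM in paternal null and 485 and 264 CPM in wild-type embryos. mt-atp8 stood at 3.88 and 2.89 CPM in the libraries labelled sperm, 97.6 CPM in both injected libraries, 64.1 and 65.3 CPM in null, 27.6 and 30.0 CPM in maternal null, 35.9 and 39.7 CPM in paternal null and 70.9 and 32.5 CPM in wild-type embryos. Both were highest in injected embryos and, among embryos, lowest in maternal null.

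The neighbours mt-co3 and mt-atp6 kept no fixed ratio. It was 3.57 and 5.57 in the libraries labelled sperm, 2.91 and 2.95 in injected, 4.08 and 4.22 in null embryos, 7.71 in both maternal null libraries, 11.14 and 11.04 in paternal null and 4.39 and 7.12 in wild-type embryos. mt-atp8 over mt-atp6 stayed between 0.115 and 0.179 in all 12 libraries. How reads over the shared bases of neighbouring genes were assigned is not given in the sources used here.

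**Figure D3:**
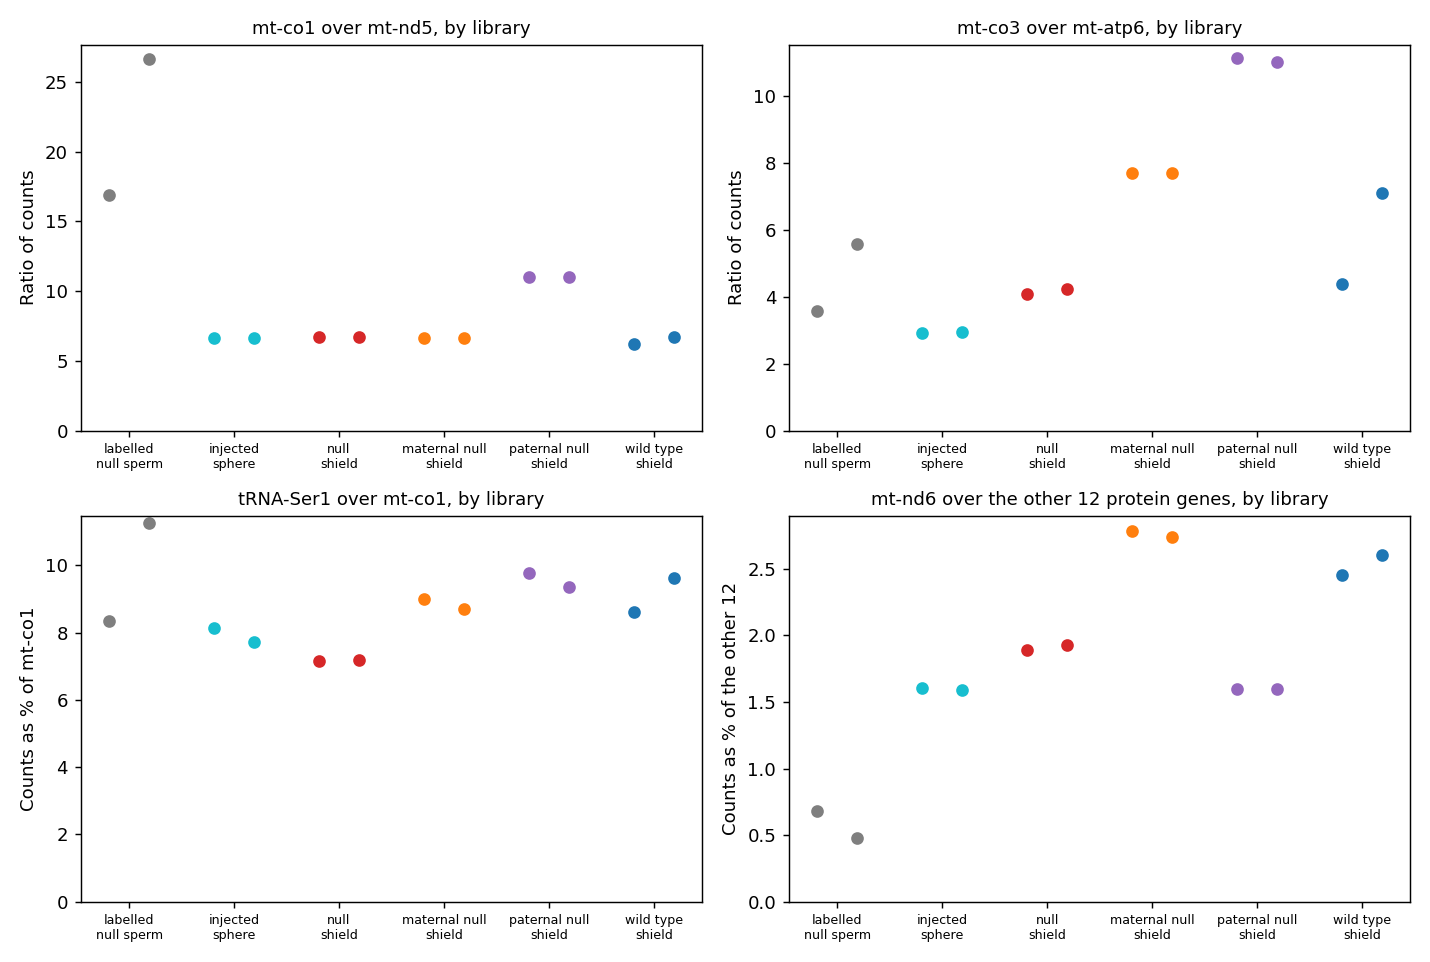
Ratios of counts between mitochondrial genes in each library, by group, each point 1 library. Both paternal null libraries stand apart at 11.03 and 11.01 for mt-co1 over mt-nd5, against 6.24 to 6.72 in the other 8 embryo libraries.

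The 12S rRNA (ENSDARG00000082753, chrM:1020-1971), the RNA of the small mitochondrial ribosomal subunit, varied widely. It stood at 128 and 21.8 CPM in the libraries labelled sperm, 646 and 651 CPM in injected, 1037 and 1069.7 CPM in null, 12287 and 12327 CPM in maternal null, 10697 and 10738 CPM in paternal null and 1603 and 8059.7 CPM in wild-type embryos. The wild-type libraries differed 5.03-fold from each other. Both reciprocal crosses lay above them, and the null and injected embryos below. Libraries were made after ribosomal RNA had been removed with Ribo-Zero Gold, a kit known to target mitochondrial as well as cytoplasmic rRNA, so these counts are of what the removal left. Its part in the differences was not tested.

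tRNA-Leu1 (ENSDARG00000083046, chrM:3726-3802) lies just ahead of mt-nd1 and downstream of the rRNA genes. Like the 12S rRNA it was highest in both crosses and low in injected and null embryos. It stood at 0.210 and 0.181 CPM in the libraries labelled sperm, 12.22 and 12.01 CPM in injected, 12.2 and 14.0 CPM in null, 59.5 and 62.6 CPM in maternal null, 86.7 and 86.2 CPM in paternal null and 12.9 and 47.5 CPM in wild-type embryos. Null and injected embryos lay beside wild-type replicate 1. As a percent of the 12S rRNA it was 0.163 and 0.830 in the libraries labelled sperm, and over the embryo libraries it ranged from 0.485 in a maternal null library to 1.89 in an injected one, with 0.804 and 0.590 in wild type.

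**Figure D4:**
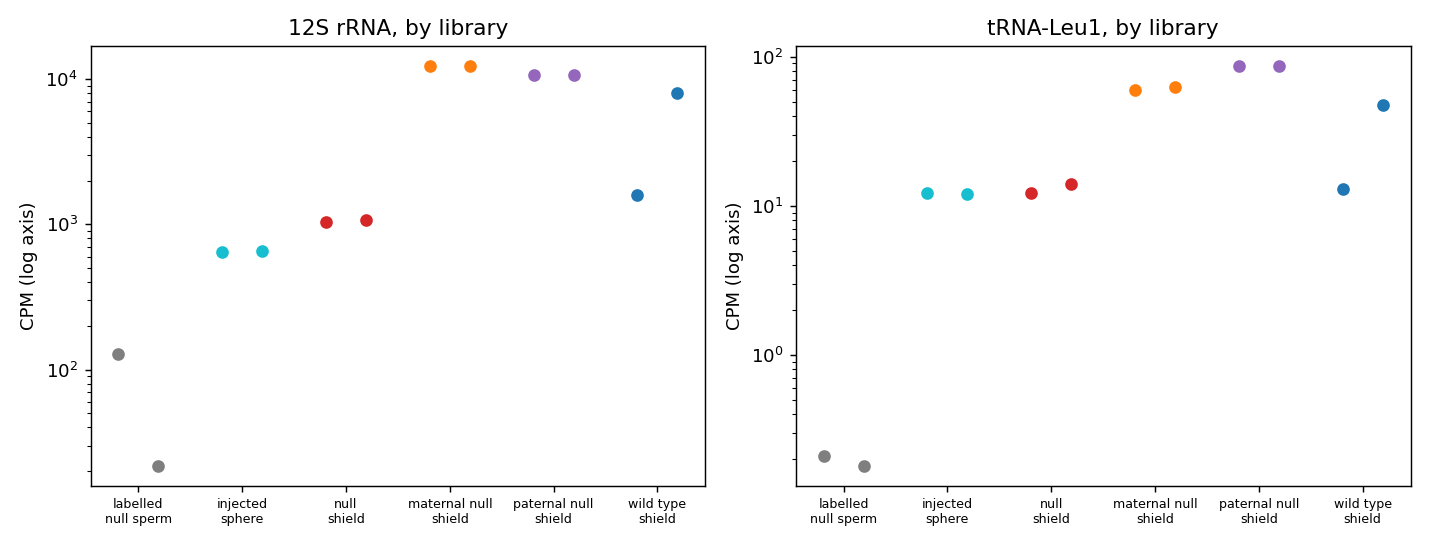
12S rRNA (left) and tRNA-Leu1 (right) in CPM on log axes, each point 1 library. The maternal and paternal null libraries lie above both wild-type libraries in each panel, and wild-type replicate 2 lies 5.03-fold above replicate 1 for the 12S rRNA.

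Most counts of tRNA genes fell on a block around mt-co1. tRNA-Ser1 (ENSDARG00000081369), which carries serine, lies immediately after mt-co1 on the opposite strand. It stood at 35.6 and 42.3 CPM in the libraries labelled sperm, 513 and 496 CPM in injected, 501 and 499 CPM in null, 443 and 434 CPM in maternal null, 813 and 791 CPM in paternal null and 549 and 410.0 CPM in wild-type embryos. These levels were 7.15% to 11.3% of those of mt-co1 in all 12 libraries. In human cells the mt-co1 mRNA is known to keep the antisense of that tRNA at its end. Libraries were stranded, but the strand setting of the counting is not given in the sources used here, so reads of tRNA-Ser1 and of such a tail cannot be told apart. tRNA-Tyr (ENSDARG00000080128), ahead of mt-co1, stood at 0.755 and 1.497 CPM in the libraries labelled sperm, 44.9 and 47.6 CPM in injected, 31.4 and 33.2 CPM in null, 30.8 and 30.2 CPM in maternal null, 56.0 and 54.1 CPM in paternal null and 43.0 and 24.8 CPM in wild-type embryos. The library preparation is not one for small RNAs, so precursors and mature tRNAs cannot be told apart either.

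The other tRNAs followed a different order from the block around mt-co1, a grouping chosen after their values were seen. tRNA-Asn, tRNA-Cys, tRNA-Tyr and tRNA-Ser1 summed to 38.4 and 45.9 CPM in the libraries labelled sperm, 636 and 621 CPM in injected, 603 and 604 CPM in null, 528 and 516 CPM in maternal null, 953 and 933 CPM in paternal null and 665 and 475 CPM in wild-type embryos. The 17 other tRNAs without tRNA-Leu1 summed to 3.04 and 2.94 CPM in the libraries labelled sperm, 188.5 and 191 CPM in injected, 199 and 205 CPM in null, 137 and 132 CPM in maternal null, 105 and 117 CPM in paternal null and 149.8 and 89.2 CPM in wild-type embryos. Paternal null embryos thus had the highest sum of the block and the lowest of the 17 among the groups near-identical in their libraries. The genes of the block all lie on the strand opposite to mt-co1, and their sum was 8.60% to 12.2% of mt-co1 in all 12 libraries. With the strand setting of the counting not given, their reads and reads of the mt-co1 strand cannot be told apart.

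Null against wild type asks what the loss of Anp32e from both parents, with the change of strain, does to these transcripts. The null libraries lay above both wild-type libraries for 16 of 22 tRNAs and below both for none, where 30.9% of all genes with at least 120 counts lay above and 32.2% below. Of the mRNAs 3 (mt-co1, mt-nd1 and mt-nd5) lay above, mt-co3 below, and 9 overlapped the range. The 12S rRNA lay below. Genes cut from shared precursors are not independent, so such counts of genes, here and below, are not counts of separate observations. After TMM scaling, which divides by a factor for library composition, 8 mRNAs lay above and 2 below, and 18 tRNAs above and 0 below, where 31% of all genes lay above and 32.5% below on that scale. None of the 36 genes was called by edgeR's quasi-likelihood test with 1 sample per near-identical pair (0 higher and 0 lower at a false discovery rate of 0.05, against 2.23% higher and 2.74% lower over all genes tested). Of the 36, 4 had an unadjusted p under 0.05 (15.7% over all genes), and DESeq2 called 0 (0.817% higher and 1.58% lower over all genes). The median log2 fold change was 0.22 over the mRNAs and 0.80 over the tRNAs, against -0.04 over all genes. The 12S rRNA differed by -2.26 ± 0.95 (log2, SE; adjusted p = 0.173), mt-co1 by 0.44 ± 0.83 (0.918) and mt-co3 by -0.35 ± 0.77 (0.938).

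With every library taken as a replicate, 15 tRNAs were called higher and the 12S rRNA lower in null embryos, at a background of 16.8% and 19.4%. tRNA-Thr, chosen for its log2 value, stood at 8.05 and 7.69 CPM in null and 3.26 and 2.81 CPM in wild-type embryos, a log2 fold change of 1.41 ± 0.64 with 1 sample per pair (edgeR adjusted p = 0.221). In the fit of every library it was 1.41 ± 0.19 (edgeR adjusted p = 0.00225). That fit takes near-identical libraries as independent, so its SE can understate the spread between samples. Counts of the called tRNAs ran from tRNA-Phe (43 and 49 in null, 27 and 16 in wild type) to tRNA-Asn (886 and 731, 757 and 282). All but tRNA-Asn belong to the 17 other tRNAs, which made 1.29% and 1.35% of the mRNA level in null embryos. In wild-type embryos the 17 made 0.949% and 0.814%.

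In maternal null embryos the mRNAs lay within or below the range of the wild-type libraries. The maternal null libraries lay below both wild-type libraries for 7 of 13 mRNAs and above both for none, while 7 of 22 tRNAs and the 12S rRNA lay above both and no tRNA below (21.2% above and 21.9% below over all genes). After TMM scaling 9 mRNAs and 1 tRNA lay below and 9 tRNAs above (22.9% above and 21.6% below over all genes on that scale). The median log2 fold change over the mRNAs was -0.32, from -1.05 for mt-atp6 (± 0.66 SE) to -0.05, and all 13 were below 0, with -0.02 over all genes. edgeR called 0 higher and 0 lower (0.364% and 0.203% over all genes), and 0 had an unadjusted p under 0.05 (3.95% over all genes). DESeq2 called 0 (0.118% higher and 0.132% lower over all genes). With every library as a replicate mt-atp6 and mt-nd3 were called lower and 0 genes higher (background 2.67% and 3.33%).

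Paternal null embryos lay above both wild-type libraries for 4 mRNAs, mt-co1, mt-co2, mt-co3 and mt-nd3, and below both for none (22.4% above and 22.4% below over all genes). The fitted differences were 0.71 ± 0.82, 0.69 ± 0.73 and 0.84 ± 0.74 on the log2 scale (SE) for mt-co1, mt-co2 and mt-co3, each about as large as its error. After TMM scaling 6 mRNAs lay above and 1 below (22.9% above and 23.2% below over all genes on that scale). Of the tRNAs 7 lay above in CPM, among them tRNA-Ser1, tRNA-Tyr and tRNA-Leu1, and 5 below. After TMM scaling 7 tRNAs lay above and 7 below. edgeR called 0 higher and 0 lower (0.184% and 0.052% over all genes), and DESeq2 called 0 (0.0142% and 0.00945%). At an unadjusted p under 0.05 was 1 gene (4.8% over all genes). The one was tRNA-Leu1 at 1.47 ± 0.54 (edgeR adjusted p = 0.403). With every library mt-co2, mt-co3, tRNA-Asn and tRNA-Ser1 were called higher (background 4.7%).

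The reciprocal crosses, maternal null set against paternal null, exchange the anp32e genotypes of mother and father at once. The mitochondria come from the mother, but the parts of mother, father and, since the labels do not place the strains, of strain cannot be told apart here. All 13 mRNAs were lower in maternal null embryos, with a median log2 difference of -0.53 against -0.004 over all genes, and 16 of 22 tRNAs were higher. With every library 12 of the 13 were lower, mt-nd6 being level. The difference ran from -1.39 ± 0.89 (SE) for mt-co3 and -1.12 ± 0.73 for mt-nd3 to -0.03 ± 0.80 for mt-nd5 and -0.03 for mt-nd6. None passed with 1 sample per pair: edgeR called 0 higher and 0 lower, against 0.307% and 0.184% over all genes. At an unadjusted p under 0.05 were 0 (4.08% over all genes), and DESeq2 called 0 (0.109% higher and 0.113% lower over all genes). Each cross then stands for 1 sample, and the error is that of wild type. In CPM wild-type replicate 2 was likewise lower than replicate 1 for 13 of 13 mRNAs, with a median log2 difference of -0.64. Genes cut from shared precursors are not independent, so the 13 are not separate observations. With every library 2 tRNAs were called higher and 8 genes lower, mt-co1, mt-co2, mt-co3, mt-nd1, mt-nd3 and the tRNAs tRNA-Asn, tRNA-Ser1 and tRNA-Tyr of the mt-co1 block (background 3.66% and 5.61%).

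By parent, embryos of null mothers against those of wild-type mothers differed by -0.87 ± 0.59 (log2, SE) for mt-co3, by -1.03 ± 0.67 for the 12S rRNA and by 1.33 ± 0.50 for tRNA-Thr. edgeR called 0 higher and 0 lower (0.68% and 1.66% over all genes), and 4 had an unadjusted p under 0.05 (9.73% over all genes). DESeq2 called 0 (0.203% higher and 0.78% lower over all genes). Embryos of null fathers against those of wild-type fathers differed by 0.60 ± 0.64 for mt-co1 and by -1.23 ± 0.67 for the 12S rRNA. There 0 were called either way by edgeR (0.898% and 0.973% over all genes), and 0 had an unadjusted p under 0.05 (8.54% over all genes). DESeq2 called 0 (0.307% higher and 0.354% lower over all genes). With every library 11 were called higher and 5 lower by mother (background 11.8% and 14.3%), and 10 higher and 0 lower by father (10.4% and 12.3%). Both contrasts also hold the strain difference between null (NHGRI) and wild-type (Tu) embryos, which cannot be told apart from genotype.

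**Figure D5:**
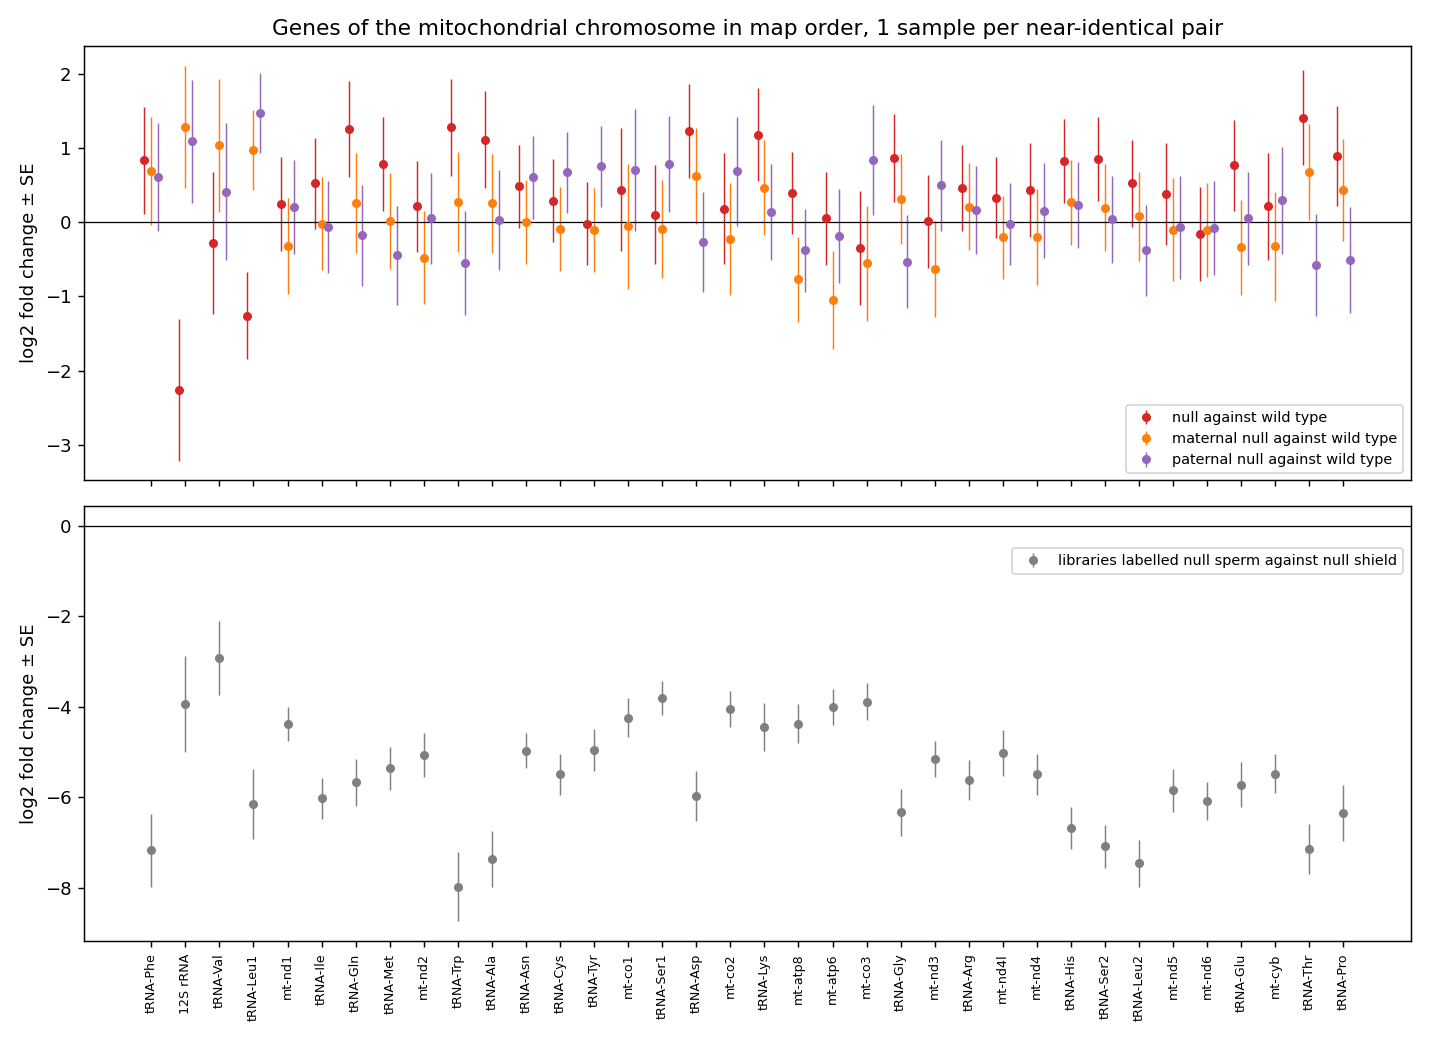
Log2 fold changes with SE from the fit with 1 sample per near-identical pair, for each mitochondrial gene in map order. In the upper panel of shield comparisons no gene was called, and in the lower panel, the libraries labelled sperm against null shield embryos, 36 of 36 genes were lower.

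The 12S rRNA and tRNA-Leu1 were high in both crosses and low in null embryos, which neither parent's term describes. The interaction of mother and father, null minus maternal null minus paternal null plus wild type, was tested after this had been seen. It also sets the unmixed strains (NHGRI null and Tu wild type) against both crosses between them, which cannot be told apart from parental genotype. tRNA-Leu1 was called at -3.71 ± 0.86 (log2, SE; edgeR adjusted p = 0.0122), the 1 gene of 36 called lower, with 0 higher (0.203% and 0.113% over all genes). The 12S rRNA had -4.64 ± 1.34 (edgeR adjusted p = 0.118), and an adjusted p of 0.0274 with every library, where 6 genes were called higher and 2 lower (background 6.8% and 10.2%). DESeq2 did not call tRNA-Leu1 (-3.68, adjusted p = 0.676). In the fit of every library the value was -3.69, and -2.99 without wild-type replicate 1 and -5.07 without replicate 2.

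Injected sphere embryos against wild-type shield embryos differ in stage and injection together, which cannot be told apart. In CPM they lay above both wild-type libraries for 9 of 13 mRNAs and 16 of 22 tRNAs, and below for mt-nd6, the 12S rRNA and tRNA-Leu1, where 52.1% of all genes lay above and 28.6% below. The TMM factors of 1.25 and 1.26 for the injected libraries lower their scaled values: after TMM scaling 5 mRNAs and 10 tRNAs lay above and 2 of each below, where 41.3% of all genes lay above and 39.4% below. edgeR called 0 higher and 0 lower (15.8% and 12.9% over all genes), 2 had an unadjusted p under 0.05 (42.2% over all genes), and DESeq2 called 1, tRNA-Leu1, lower (13.6% over all genes). The 12S rRNA differed by -3.37 ± 1.29 (adjusted p = 0.0785) and tRNA-Leu1 by -1.77 ± 0.71 (0.0823). Without both libraries labelled sperm, whose spread enters this fit, they were called lower (edgeR adjusted p = 0.0084 and 0.0271; 8.83% of all genes lower). mt-atp6 differed by 0.74 ± 0.39, mt-nd1 by 0.50 ± 0.38 and mt-nd6 by -0.66 ± 0.40, none of them called in that fit. With every library 6 genes, mt-atp6 and mt-nd1 among them, were called higher and 3 lower, mt-nd6, the 12S rRNA and tRNA-Leu1 (background 31.6% and 32.1%).

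In the libraries labelled sperm, against null shield embryos of the same genotype label, every mitochondrial gene fell: 36 of 36 were called lower by edgeR with 1 sample per near-identical pair and 36 of 36 with every library. Over all genes 30.5% were lower and 30% higher with 1 sample per pair, 39.1% and 41.3% with every library, and 31.8% and 30.7% in both. The labelled stage and tissue differ here, no strain is given for the libraries labelled sperm, and the oocyte markers given above move with the result. Their part in it was not tested. The median log2 fold change was -5.49, from -7.97 to -2.91, against 0.07 over all genes, and the largest adjusted p of the 36 was 0.0107. DESeq2 called 35 of 36 lower (25.8% over all genes).

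Of the protein genes the subunits of cytochrome c oxidase and ATP synthase fell least and mt-nd5 and mt-nd6 most. Folds here and in the next paragraph are ratios of CPM pooled over both libraries of a group. The log2 values are edgeR estimates after TMM scaling, so the measures differ somewhat. mt-co1 fell 17.3-fold (log2 -4.24 ± 0.43 SE, edgeR adjusted p = 1.48e-05), mt-co2 15.4-fold and mt-co3 13.8-fold (log2 -3.88 ± 0.40). mt-atp6 and mt-atp8 fell 14.6- and 18.8-fold and mt-nd1 18.9-fold. mt-nd2, mt-nd4l, mt-nd3 and mt-nd4 fell 29.5-, 28.8-, 33.3- and 40.3-fold, mt-cyb 40.6-fold, mt-nd5 51.5-fold and mt-nd6 61.5-fold (log2 -6.09 ± 0.42, edgeR adjusted p = 1.48e-06). Within the mRNA pool mt-co1 over mt-nd5 was 16.9 and 26.7 in the libraries labelled sperm, against 6.68 and 6.72 in null embryos. The order of the falls therefore rests on values that differ between the libraries labelled sperm themselves: mt-nd2 had 13.3 and 5.89 CPM, mt-nd4l 4.19 and 1.63 CPM and mt-nd5 25.2 and 14.1 CPM there, while mt-co2, mt-co3 and mt-nd3 were higher in the second library. Without the first and without the second library labelled sperm the log2 change was -5.75 and -4.58 for mt-nd2 and -5.85 and -4.50 for mt-nd4l.

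The 12S rRNA fell 13.1-fold (log2 -3.93 ± 1.06, edgeR adjusted p = 0.0107). It stood at 128 and 21.8 CPM in the libraries labelled sperm, against 1037 and 1069.7 CPM in null embryos, and was not called when either wild-type library was left out (adjusted p = 0.346 and 0.348). Its change was -5.70 without the first library labelled sperm and -3.15 without the second. tRNA-Ser1 fell 12.96-fold (log2 -3.80 ± 0.37) and tRNA-Tyr 29.6-fold, while tRNA-Leu1 fell 66.1-fold. tRNA-Trp (ENSDARG00000080718) had the largest fitted change (log2 -7.97 ± 0.76). It had 0 and 0.0516 CPM in the libraries labelled sperm, so that the fitted value was -6.91 without the first of them and -11.00 without the second. Summed it had 2 counts there and 289 in null embryos, 266-fold lower with an exact counting interval at 95% confidence of 73.0 to 2209. tRNA-Val, with 4 and 16 counts, was lowest in size at -2.91 and was not called by DESeq2 nor in 3 of the fits that leave out 1 library (-2.04 without null replicate 1).

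The nuclear genes that maintain, copy, process and translate the mitochondrial genome were read from the same fits, 71 of 79 listed being found. In null against wild-type embryos 1 rose and 1 fell, with a median log2 of -0.05 (-0.04 over all genes; 2.45% and 2.85% called in both fits). ppargc1b, a coactivator of mitochondrial biogenesis, rose to 2.41 and 1.98 CPM in null embryos, against 0.557 and 0.296 CPM in wild type (log2 2.37 ± 0.77; edgeR adjusted p = 0.042). It stood at 2.271 and 2.799 CPM in maternal null and 0.614 and 0.459 CPM in paternal null embryos. In embryos of null mothers against those of wild-type mothers it rose (log2 2.32 ± 0.60, edgeR adjusted p = 0.00813). Its level with wild-type mothers rests on few counts: 3 counts made 0.119 and 0.222 CPM in the wild-type libraries. TOP3A, a topoisomerase that separates replicated mitochondrial DNA and also acts in the nucleus, fell to 4.59 and 4.29 CPM in null, against 16.4 and 20.9 CPM in wild-type embryos (log2 -2.05 ± 0.67; edgeR adjusted p = 0.0477). ppargc1b was not called in null embryos without null replicate 1 (edgeR adjusted p = 0.0993), nor TOP3A without null replicate 2 (0.0565) or with no filter on low counts (0.0515). DESeq2 called TOP3A (adjusted p = 0.0438) but not ppargc1b, in null embryos (0.334) or by mother (0.247). No gene of the list was called by edgeR with 1 sample per pair in maternal null or paternal null against wild type or between the crosses. Over all genes 0.364%, 0.184% and 0.307% were called higher there and 0.203%, 0.052% and 0.184% lower. At an unadjusted p under 0.05 were 1, 0 and 1 of the list, against 3.95%, 4.8% and 4.08% over all genes.

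In injected embryos 11 of the 71 rose and 2 fell (median 0.28, 0.002 over all genes), where 16.8% and 13.5% of all genes were called in both fits. MRM1, which methylates mitochondrial rRNA, rose by 2.06 ± 0.37 on the log2 scale, fastkd2, an RNA-binding protein of the mitochondrial granules, by 2.04 ± 0.37 and mtfmt, which formylates the initiator tRNA, by 1.90 ± 0.38. The initiation factor gene mtif3 fell by 1.96. In the libraries labelled sperm 40 rose and 1, the DNA-binding protein gene SSBP1, fell (median 1.23, against 0.07 over all genes; 30.7% and 31.8% called in both fits). SSBP1 was not called when either library labelled sperm was left out (edgeR adjusted p = 0.177 and 0.13). ppargc1b stood at 51.6 and 50.6 CPM there and rose by 4.41 ± 0.49, fastkd2 by 4.30 ± 0.47, the helicase gene DHX30 by 4.04 ± 0.48 and METTL15, a methyltransferase of the 12S rRNA, by 3.96 ± 0.48 (log2, SE, edgeR with 1 sample per pair). The list summed to 3591 to 3712 CPM in the libraries labelled sperm, 2464 to 2472 CPM in sphere and 1400 to 1543 CPM in shield embryos. Of 18 mitochondrial tRNA synthetase and tRNA amidation genes, 13 rose and 1 fell in the libraries labelled sperm, and 6 rose and 2 fell in injected embryos. The 1 that fell in the libraries labelled sperm was HARS2, at -1.76 ± 0.40 (log2, SE). Without replicate 2 of these libraries it was at -1.40 and not called. In null against wild type edgeR with 1 sample per pair called none of the 18 (2.23% higher and 2.74% lower over all genes). At an unadjusted p under 0.05 were 0 (15.7% over all genes). Their median log2 was -0.32, against -0.04 over all genes. With every library 0 were called higher and 3 lower (16.8% and 19.4% over all genes), and 11 had an unadjusted p under 0.05 (47.4% over all genes).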

How the data were processed

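The deposited table holds counts of reads per gene for 12 libraries with no normalization, from total RNA prepared with Trizol and SDS, Ribo-Zero Gold and stranded TruSeq kits, per the labels' protocols. Per the submitters' processing notes Novoalign 2.8 and DESeq2 were used, with roles not given in the sources used here. The lowest maximum of any gene was 10 counts. Symbols were matched for 20669 of 22737 genes, and mitochondrial names by position in RefSeq.

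Counts were tested over all genes in edgeR 4.0.16 (R 4.3.3): robust quasi-likelihood F test, TMM, filterByExpr, p-values adjusted by Benjamini-Hochberg and a threshold of 0.05. The SE given with an edgeR value is the size of its log2 fold change divided by the square root of the F statistic. Pairs with a chi-square per degree of freedom under 2, over genes with at least 20 counts, were summed into 1 sample, leaving 5 shield samples with 1 residual degree of freedom, and 8 samples with 2 for comparisons with injected embryos and the libraries labelled sperm. "Rose" and "fell" mark genes called both so and with every library as a replicate. On simulated data the summed fit recovered 1% of 2-fold and 11% of 4-fold changes for null against wild type over 20861 genes, and 7% and 58% for the libraries labelled sperm against null shield over 22071 genes, so a gene that was not called is not shown to be level. The simulation drew all genes with the same dispersion and changed only a small set of them, so recovery in the data can differ.

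Alternatives were every library, a replicate block, DESeq2 1.42.0 (its size factors and Wald test), no filter, scaling without mitochondrial genes, no 12S rRNA and leaving out each library. Named are all mitochondrial protein and rRNA genes, the 3 tRNA genes of highest mean CPM, the called tRNA gene of largest change per comparison and direction, and up to 4 called nuclear genes of the list per comparison, with exceptions stated. Members, lists and tests were chosen with earlier results of these data known. The interaction was added after seeing the values.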

Additional observations from a re-analysis of the deposited data

Results flagged for a closer look

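tRNA-Leu1 stood out because the difference between embryos of null and wild-type mothers changed with the father. The contrast also sets null (NHGRI) and wild-type (Tu) embryos against both crosses of those strains. Parental genotype and the crossing of strains cannot be told apart in it. Its level was 12.2 and 14.0 CPM in null embryos against 86.7 and 86.2 CPM in paternal null embryos, both of null fathers, and 59.5 and 62.6 CPM in maternal null against 12.9 and 47.5 CPM in wild-type embryos, both of wild-type fathers. The interaction was -3.71 ± 0.86 on the log2 scale (SE; edgeR adjusted p = 0.0122). This contrast was added after the pattern had been seen. Its p rests mostly on a spread borrowed from other genes, while the wild-type libraries differed 3.69-fold for tRNA-Leu1. Over the planned and added settings DESeq2's Wald test did not call it (adjusted p = 0.676), while the edgeR fits did. All settings refit the same counts, so the edgeR calls are not independent of each other. The near-identical libraries of 3 of the 4 groups make each of those groups 1 sample. The 12S rRNA, a target of the rRNA removal, moved the same way (-4.64, adjusted p = 0.118). The part of the removal in both was not tested.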

How the results depend on the processing

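Of 0 genes called higher and 0 lower among shield groups, every library as a replicate, with the shares of all genes given above, made 15 and 1 for null, 0 and 2 for maternal null and 4 and 0 for paternal null against wild type, 2 and 8 between the crosses, 11 and 5 by mother, 10 and 0 by father, and 6 and 2 for the interaction (0 and 1 with 1 sample per pair). Injected against wild type it made 6 and 3. A replicate block added to that fit gave 12 higher and 0 lower for null (14.9% and 17.2% over all genes), 0 and 0 for maternal null (1.71% and 1.25%) and 2 and 0 for paternal null against wild type (2.59% and 0.751%). It gave 1 and 4 between the crosses (2.2% and 3.64%), 8 and 3 by mother (9.68% and 12.1%), 7 and 0 by father (8.62% and 9.55%), 4 and 2 for the interaction (4.17% and 7.44%) and 7 and 3 for injected embryos (31.4% and 31.8%). Same-numbered libraries had correlated deviations of at most 0.043 (0.199 for wild type with the libraries labelled sperm), so the numbers are not shown to pair libraries.

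Leaving out 1 library of a near-identical pair changed no count among shield groups with 1 sample per pair. With every other library as a replicate, the fits without wild-type replicate 1 and without replicate 2 called 30 and 23 genes higher and 3 and 6 lower for null, 15 and 4 higher and 8 and 18 lower for maternal null, and 21 and 12 higher and 0 and 14 lower for paternal null against wild type. They called 11 and 10 higher and 17 and 17 lower between the crosses, 19 and 15 higher and 11 and 17 lower by mother, 26 and 25 higher and 2 and 3 lower by father, 18 and 25 higher and 10 and 7 lower for the interaction, and 15 and 4 higher and 4 and 7 lower for injected embryos. In these fits 28.8% and 35.2% of all genes were higher and 29.3% and 37.1% lower for null, 25.6% and 26.7% higher and 24.1% and 28.8% lower for maternal null, and 26% and 26.8% higher and 26.7% and 25.9% lower for paternal null. They were 28.3% and 25.9% higher and 25.1% and 25.9% lower between the crosses, 28.9% and 32.5% higher and 27.6% and 35.7% lower by mother, 25.4% and 31.3% higher and 29.7% and 32.8% lower by father, 28.3% and 24.9% higher and 34.1% and 30.7% lower for the interaction, and 34.1% and 32.3% higher and 31.8% and 33.2% lower for injected embryos. For injected embryos the fit with 1 sample per pair gave 3 higher and 1 lower without wild-type replicate 1 (26.7% and 24.8% over all genes), 1 and 1 without replicate 2 (24% and 22.8%), and 2 lower when either library labelled sperm was left out (8.37% and 8.36%). With 1 sample per pair no shield fit without a wild-type library was possible, since no residual degree of freedom remained. DESeq2's Wald test gave 0 lower for the interaction (0.0331% over all genes) and 1 lower for injected embryos (13.6%), and the fit without both libraries labelled sperm, added after seeing the data, gave 2 lower (8.83%).

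Of the nuclear list, every library gave 8 higher and 8 lower of 70 tested for null (16.8% and 19.4% over all genes), 2 and 1 for maternal null (3.33% and 2.67%), 2 and 0 for paternal null against wild type (4.7% and 2.32%) and 2 and 1 between the crosses (3.66% and 5.61%). With no filter on low counts 0 were lower for null, where TOP3A had been called. Of the values of single genes followed across settings, 986 kept their direction and their side of the threshold, 88 passed it in place of missing it and 15 lost it. The 15 were tRNA-Leu1 for the interaction under DESeq2, and, in the libraries labelled sperm, the 12S rRNA without either wild-type library, tRNA-Val under DESeq2 and in 3 fits without 1 library (adjusted p from 0.0694 to 0.131), SSBP1 without either library labelled sperm and HARS2 without replicate 2 of them. For null against wild type they were TOP3A with no filter (adjusted p = 0.0515) and without null replicate 2 (0.0565), and ppargc1b under DESeq2 (0.334) and without null replicate 1 (0.0993), and by mother ppargc1b under DESeq2 (0.247). In 2 settings the sign turned, for mt-nd6 between the crosses, at 0.0003 with every library and 0.0001 with the replicate block. Injected mt-co3 lay above both wild-type libraries in CPM and below both after TMM scaling.

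The mean difference of the chrM share by mother stayed negative, between -0.473 and -0.229 percentage points when 1 library was left out, -0.227 without the 12S rRNA, -0.215 for protein genes, -0.224 on TMM-scaled totals and -0.437 with every library (exact permutation p from 0.286 to 1.0). For the share with the 12S rRNA that mean hides opposite directions by father. With wild-type fathers the share was higher for null mothers (2.40% and 2.42%, against 1.82% and 1.96%). With null fathers it was lower (1.72% and 1.71%, against 3.08% and 3.12%). Low counts limit most tRNA genes in the libraries labelled sperm, and tRNA-Val in every group, where it had between 4 and 36 counts.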
